A study of Mus musculus with 3 samples.

Results

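T cells recovered from ear epidermis after croton oil were taken from a single-cell library that had been enriched for Langerhans cells, the antigen-presenting cells of the epidermis. A droplet counted as a T cell when it held at least 500 detected genes, at most 10% mitochondrial UMIs (unique molecular identifiers, each standing for 1 captured RNA molecule) and at least 5 UMIs summed over Cd3e, Cd3g, Cd3d, Trdc, Trac and Trbc2. It also had to keep the MHC class II genes Cd74, H2-Aa, H2-Ab1 and H2-Eb1 under 1% of its UMIs, the keratins Krt14 and Krt5 under 0.5%, and S100a8 and S100a9 under 1%. By this rule 128 of the 8158 croton oil cells that passed the quality limits were T cells, of 150 such cells among the 25062 barcodes of the whole series. The cells were thus chosen by their measured levels of these genes, and the 6 T cell genes and the genes held low are described only, with no test.

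The series holds 1 library of each of 3 groups of male mice of the strain labelled Cd1, all of ear epidermis. The ears of the first group received croton oil, a plant oil that irritates skin, in acetone and olive oil, and those of the second received multiple microneedle punches. Cells of both were prepared 48 hours after the first treatment. The untreated group received the depilatory Nair and nothing else. The labels name Langerhans cells as the cell type of every library, give neither the age nor the number of animals behind a library, and describe removal of dead cells and magnetic enrichment of Langerhans cells, so shares are shares of the enriched suspension and not of the skin.

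Mouse epidermis is known to house a resident population of gamma-delta T cells, the dendritic epidermal T cells, which settle there from the fetal thymus and live among the keratinocytes. Their receptor is nearly invariant and is built from the gamma segment Trgv5 and the delta segment Trdv4, whereas most T cells that circulate carry alpha-beta receptors. The receptor signals through the CD3 chains, and these cells also carry activating receptors of natural killer (NK) cells, which read stress ligands on keratinocytes. They are known for cytotoxic granules and for growth factors and cytokines that act on the epithelium.

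The V segments carry the identity of such a receptor, so the last 90 bases of 3 of them are shown, from the GENCODE M39 transcripts on GRCm39. Trdv4 lies at chr14:54312362-54312972 on the plus strand, Trgv5 at chr13:19376448-19376895 and Trgv6 at chr13:19374526-19375099, also on the plus strand. The first and second are the segments of the epidermal receptor, and Trgv6, the neighbouring segment, is given for contrast. Capitals mark the codon of the conserved cysteine at which the V segment nears its junction.
Trdv4: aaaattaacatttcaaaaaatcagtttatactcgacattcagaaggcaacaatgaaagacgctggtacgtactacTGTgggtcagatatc
Trgv5: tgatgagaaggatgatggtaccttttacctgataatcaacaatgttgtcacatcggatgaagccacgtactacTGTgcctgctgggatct
Trgv6: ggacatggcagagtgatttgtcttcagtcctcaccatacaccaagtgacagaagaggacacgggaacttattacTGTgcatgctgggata

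T cells were 1.57% of the croton oil cells (exact binomial 95% interval 1.31 to 1.86). The same rule found 13 of 6855 microneedle cells (0.190%, 0.101 to 0.324) and 9 of 9827 untreated cells (0.0916%, 0.0419 to 0.174). Of the 9 untreated cells, 8 held no UMI of Cd3e, Cd3g, Cd3d, Trdc, Trac, Nkg7 or Ctla2a, and entered through Trbc2 alone, with 63 UMIs among them. These 8 had 27060 to 96920 UMIs each, with 15978 UMIs of Krt10 and 10276 of Krtdap, genes of differentiating keratinocytes. The other untreated cell had 6853 UMIs, with 14 of Trdc, 18 of Cd3g, 37 of Ctla2a and 5 of Trdv4. With Krt1 and Krt10 also held under 0.5% of UMIs, a limit set after the data had been seen, the counts were 127, 13 and 1. With 1 library per group no test between groups is possible, and all intervals cover counting error only.

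The 128 cells held 1286 to 73170 UMIs each, with a median of 6208 UMIs and 2839 genes. The 6 T cell genes of the rule had a median of 66 UMIs per cell (5 to 173), or 9.49 per 1000 UMIs. The gap at the threshold was wide: 1 cell lay between 5 and 9 UMIs, none had exactly 4, and 12 cells that met the other limits had 1 to 4. In all, 254 quality-passing croton oil cells had 5 or more of these UMIs, of which 115 failed on MHC class II, 13 on Krt14 and Krt5 and 2 on the S100 genes. The 115 droplets that joined T cell genes to MHC class II were therefore nearly as many as the T cells themselves. The libraries share 13 to 32 barcodes pairwise, and a barcode of 1 T cell recurred in the untreated and of 1 in the microneedle library, neither as a T cell there.

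**Figure D1:**
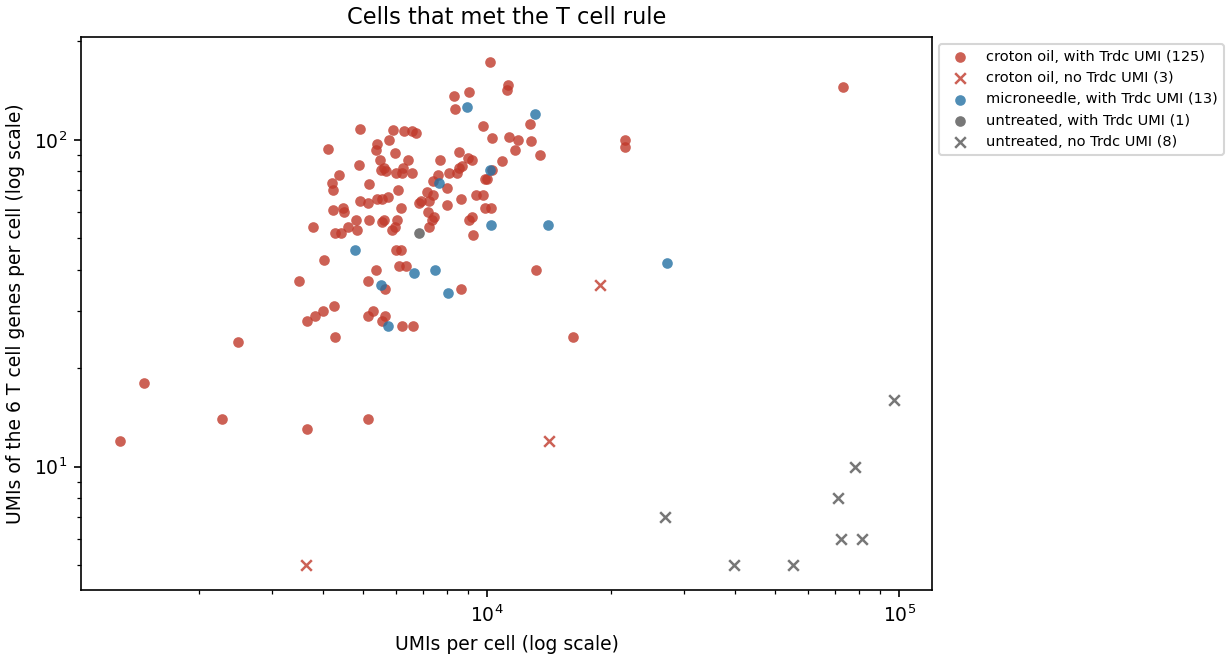
UMIs of the 6 T cell genes against all UMIs, both on log scales, for every cell that met the rule in the 3 libraries (colours), with crosses for cells that lacked a Trdc UMI. The croton oil and microneedle cells with Trdc overlap, apart from 1 croton oil cell at 73170 UMIs, while the 8 untreated crosses have 27060 or more UMIs and 16 or fewer T cell UMIs.

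One member stood apart by its depth and its keratins. It had 73170 UMIs, 7.39% of all UMIs of the 128 cells, with 33 UMIs of Trdc, 61 of Cd3g, 2019 of Krt1 and 454 of Krt10. It is referred to as the keratin-bearing cell, and its share of a gene's UMIs is given where it moves a value. The highest MHC class II shares, 0.821%, 0.508% and 0.371% of UMIs, were in other members, of 21674, 21672 and 16181 UMIs. These held 55, 63 and 27 of the 233 Cd74 UMIs of the T cells. Whether they are mixed droplets was not tested.

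Langerhans-rich cells of the same library served to show how much of a gene was present in cells that should lack it. They were the 4714 croton oil cells with at least 3% MHC class II UMIs, a Cd207 UMI and none of the 6 T cell genes, and their median depth of 13098 UMIs was above that of the T cells. Shares of cells with a UMI were therefore also taken after thinning each cell to 2000 UMIs, which left out 2 T cells and 12 Langerhans-rich cells. Levels are CPM (UMIs of a gene per 1000000 UMIs summed over the cells), and differences are log2 of the ratio of CPM + 5. Of 7905 genes with 20 CPM or more in either, 23.8% exceeded the Langerhans-rich level by 2-fold or more in T cells, 12.8% fell short of it by 2-fold or more, and the median gene differed by 0.29 on the log2 scale. Of these genes 1684 reached the limit in T cells alone, and 1122 of them were higher by the same measure, an outcome the limit favours. Of the 6221 that reached it in Langerhans-rich cells, 756 were higher in T cells by 2-fold or more and 1011 lower. Counts over a list are therefore descriptions, to be read beside these shares, and give no support to the list's name. Genes high in Langerhans-rich cells were low in the T cells: Cd207, the gene of langerin, had 4 UMIs in 4 cells, 4.04 CPM against 405 CPM. Il1r2 was at 28.3 against 2642 CPM. The source of these UMIs was not tested. Of the 9 Langerhans cell markers, all were at least 2-fold lower, 4 of them by the rule and Cd207 in part because the Langerhans-rich cells were chosen to hold it, and their summed level per T cell ranged from 0 to 9320 CPM with a median of 389.

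Trdc, Trac and Trbc2 belong to the rule, so their counts describe the choice of cells and give no support of their own. Trdc, the constant gene of the delta chain (chr14:54380308-54386325), was seen in 125 of 128 cells with 2725 UMIs, a median of 19 and at most 69 per cell. Trac, the constant gene of the alpha chain (chr14:54457978-54461663), gave 32 UMIs in 18 cells. Cells with Trdc and no Trac numbered 109 (85.2%, 77.8 to 90.8), cells with both 16, with Trac only 2 and with neither 1. In the 16 cells with both, Trdc had 4 to 38 UMIs and Trac 1 to 5, and 12 of them had just 1 Trac UMI. All 13 microneedle T cells held Trdc, 6 to 49 UMIs each, and 3 of them also Trac, with 1 to 3 UMIs.

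Receptor genes the rule did not use were of the gamma-delta kind in most cells. Trgc1, a constant gene of the gamma chain (chr13:19398273-19401194), had 824 UMIs in 119 cells. Trgc4 had 102 UMIs in 66 cells and Trgc2 had 30 in 23. In the transcripts of the annotation Trgc1 and Trgc2 are 95.9% identical over 909 aligned bases, so reads of the first could be counted for the second. A constant gamma gene and Trdc occurred together in 122 cells. After thinning, Trgc1 was seen in 78.6% of T cells and 0.0213% of Langerhans-rich cells.

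Among delta V segments the counts were almost entirely Trdv4, with 409 UMIs in 113 cells and up to 18 in a cell. All other delta V segments together had 1 UMI. Trdv4 was seen in 112 of the 125 cells with Trdc, in 12 of 13 microneedle T cells (57 UMIs) and in the untreated T cell, and in no Langerhans-rich cell. The gamma V segments were far sparser. Trgv5 had 29 UMIs in 23 cells, Trgv2 38 UMIs in 25 cells and Trgv1 11 UMIs in 11 cells, while Trgv6 and Trgv4 had 1 UMI each. The library reads the 3′ end of transcripts and the V segment lies near the other end, so a cell without a V segment UMI cannot be said to lack it. These counts are of gene segments and not of assembled receptor sequences.

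Beta chain constant genes were present in cells whose receptor genes were otherwise gamma-delta. Trbc1 had 328 UMIs in 91 cells and Trbc2 had 315 UMIs in 103 cells, and 114 cells held Trdc together with one of them. Trdc and Trbc2 were part of the rule, so their presence and co-occurrence follow in part from the choice of cells, and Trbc1 alone lay outside it. Alpha and beta V segments gave 2 Trbv UMIs and 1 UMI of a Trav segment not shared with the delta locus, under the same limit of the 3′ library. Trbc1 was at 331 CPM (297 to 369) in T cells against 0.0882 CPM in Langerhans-rich cells and 332 CPM in the microneedle T cells. The transcripts of Trbc1 and Trbc2 are 86.3% identical over 677 bases, so the split between them is uncertain. Cd4, the coreceptor of helper T cells, had no UMI, which allows up to 3.03 CPM by the limit of 3 counts, and Cd8a and Cd8b1 were seen in 1 cell, with 3 and 5 UMIs.

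**Figure D2:**
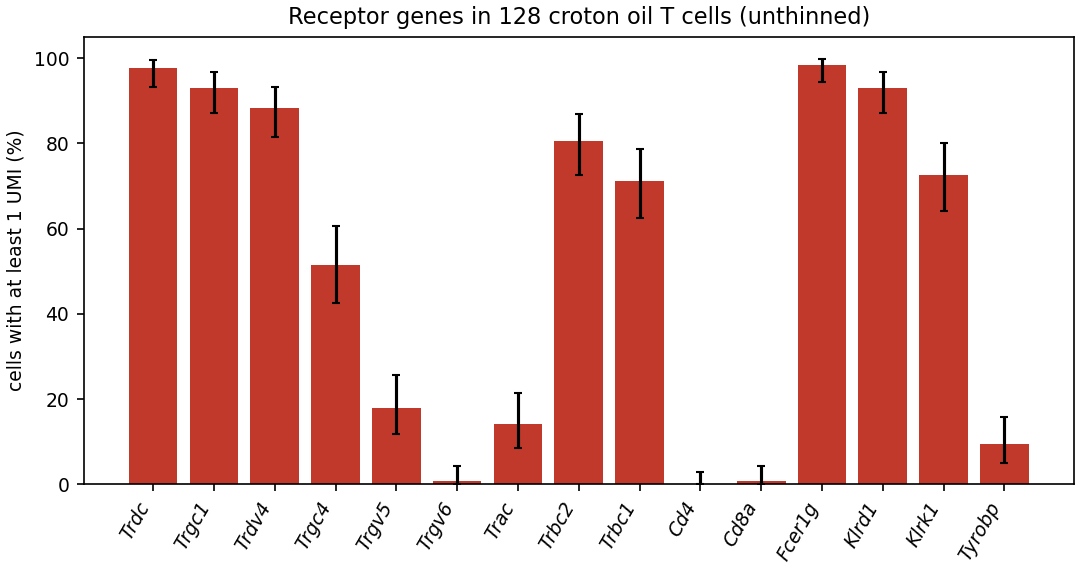
Share of the 128 croton oil T cells with at least 1 UMI of each receptor gene, without thinning, with exact binomial intervals as error bars. Trdc (97.7%), Trgc1 (93.0%), Trdv4 (88.3%) and Fcer1g (98.4%) are seen in nearly all cells, Trac in 14.1%, and Cd4 in none.

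The 3 cells without Trdc differed from the rest and from each other. The first, with 18825 UMIs and 8 of Trac, was the cell with the Cd8a and Cd8b1 UMIs, and it also held all Ifng (3 UMIs) and all Ccl5 (5 UMIs) of the 128 cells, 25 of the 52 Ccr7 UMIs, 16 of Gzmb and 42 of Tnfrsf9. The second, with 14100 UMIs, had only 1 UMI of Trac and 1 of Trdv4, no Cd3e and no Nkg7, but 46 UMIs of Rora, 15 of Icos, 10 of Il2ra, 14 of Mki67 and 14 of Top2a. The third held 3641 UMIs and 5 T cell UMIs, the fewest of any member. It had neither Trdc nor Trac, but 19 UMIs of Ikzf2, 4 of Ctla4, 1 of Foxp3, 8 of Icos, 7 of Il2ra, 26 of Tnfrsf9 and 13 of Gzmb. It was the sole cell with Foxp3, the factor that defines regulatory T cells, or with Ctla4. Because each is 1 cell, these are descriptions of droplets and not of cell types.

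When the 109 cells with Trdc only were set against the 2 with Trac only, 2012 of 5314 genes (37.9%) were 2-fold or more higher and 548 (10.3%) were lower by as much. The second group held 32925 UMIs in all against 828484, so a gene near the limit of 30 UMIs is expected to have about 1 UMI there. With limits of 60 UMIs and 1 UMI the counts were 1272 and 268, and 5438 and 2315, so nothing is read from them. No gene could reach 5 cells in the second group, so none is named as higher in it. The 10 genes with the largest difference had no UMI in the 2 cells, so their order is that of their level in the Trdc-only cells. They were Krt1, Il12rb2, Cntn1, Acp3, Trgc1, Ctnnd2, Tsc22d1, Adgrl2, Sema6d and Dsp. The keratin-bearing cell, which has Trdc only, held 2019 UMIs of Krt1 and 291 of Dsp, and in the other 127 T cells these genes were at 10.9 and 137.5 CPM. Il12rb2, a chain of the interleukin-12 receptor, was at 989.8 CPM in 103 of the 109 cells, and the adhesion gene Cntn1 at 911 CPM, also in 103.

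Most genes that carry the receptor signal were detected. Of 13 genes of the receptor complex, 3 belong to the rule and 11 reached 20 CPM, all through the T cells alone, while Cd5 and Cd6, surface regulators of the receptor, stood at 6.06 and 1.01 CPM. Cd247, the zeta chain of the complex, was seen in 125 cells (1104 CPM) and the adaptor Trat1 in 122 (1094 CPM). The kinases Lck and Zap70 were lower, at 262 and 155 CPM, and were seen in 99 and 87 cells. The given markers that the rule had not used were present in nearly all cells: Ctla2a, an inhibitor of cysteine proteases, in 126 (3882 CPM against 0.544), Nkg7, a protein of cytotoxic granules, in 126 (1661 against 0.162) and the surface receptor Cd7 in 125 (1362 against 3.07). After thinning they were seen in 96.8%, 93.7% and 88.9% of T cells, against 0.128%, 0.0213% and 0.596% of Langerhans-rich cells. The name T cell comes from the rule, of which the other 3 given markers, Cd3e, Cd3g and Trdc, were part. Ctla2a, Nkg7 and Cd7 reached the level limit in T cells alone. They describe the cells and are not used as support for the name.

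NK cell receptors and adaptors were in part as abundant as the receptor genes. Of 12 listed, 4 reached the level limit in T cells alone. Of the 4 that reached it in Langerhans-rich cells, 2 were at least 2-fold higher in T cells and 1 lower. Of all 6221 such genes 756 were higher and 1011 lower. Fcer1g, a signalling adaptor, had 1336 UMIs in 126 cells (1350 CPM against 439). Klrd1, the CD94 chain that forms receptors with NKG2 proteins, was seen in 119 cells (544 CPM against 12.1), Klrk1, the activating receptor NKG2D, in 93 cells (209 CPM against 0.147), and its adaptor Hcst in 111 cells (365 CPM against 20.7). Tyrobp, the other adaptor through which such receptors signal, was at 36.4 CPM in 12 cells against 1058 CPM in Langerhans-rich cells. Klrc1 and Klrc2 were seen in 29 and 26 cells. Ncr1 and Klrg1, markers of NK cells and of effector lymphocytes, had no UMI, and neither did the NK factor Eomes.

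Among cytotoxic genes perforin was widespread and granzymes were sparse. Of 13 granule genes 5 reached the level limit in T cells alone. Of the 4 that reached it in Langerhans-rich cells 2 were at least 2-fold higher in T cells, beside 756 of all 6221 such genes. Ctsw, the protease cathepsin W of cytotoxic lymphocytes, was at 1009 CPM (947 to 1070) in 124 cells. Prf1, the gene of the pore-forming perforin, had 365 UMIs in 109 cells and at most 11 in a cell, at 369 CPM (332 to 409) against 0.426 CPM, and after thinning it was seen in 61.1% of T cells and 0.0213% of Langerhans-rich cells. The granzymes are proteases that enter target cells through perforin, and Gzma, Gzmk and Gzmm had no UMI in any of the 128 cells. Gzmc had 60 UMIs in 17 cells, 52 of them in 10 cells, and Gzmb 36 UMIs in 7 cells, 16 and 13 of them in 2 of the cells without Trdc. Fasl, the death ligand, had 12 UMIs in 9 cells. Prf1 was spread evenly: its 10 highest cells held 22.7% of its UMIs, against 86.7% for Gzmc.

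Of the secreted factors listed, Tgfb1 was seen in 90 cells (229 CPM against 169), and the others in fewer. Tnfsf11, the ligand RANKL, had 171 UMIs in 44 cells with up to 16 in a cell, at 173 CPM (148 to 201) against 0.867 CPM. Xcl1, a chemokine that attracts dendritic cells, had 91 UMIs in 42 cells (92.0 CPM against 0.0147). Il13, a type 2 cytokine, had 49 UMIs in 33 cells and none in the Langerhans-rich cells. Areg, the epidermal growth factor receptor ligand amphiregulin, had 142 UMIs in 28 cells with up to 19 in a cell, 12 of them in the keratin-bearing cell, at 143 CPM against 8.02 CPM. At least 1 of Tnfsf11, Xcl1, Il13 and Areg was seen in 89 of the 128 cells. After thinning, Tnfsf11 was seen in 22.2% of T cells, Xcl1 in 15.9%, Areg in 15.1% and Il13 in 9.52%, and in 0.0851%, 0%, 0.872% and 0% of Langerhans-rich cells. The 10 highest cells held 67.6% of the UMIs of Areg, 53.8% of Tnfsf11, 46.9% of Il13 and 46.2% of Xcl1. After thinning, the Fano factor over T cells (variance over mean, 1 for random sampling) was 2.58 for Areg and 2.74 for Tnfsf11 but 1.05 for Il13 and 1.28 for Xcl1. Cells with both genes of a pair numbered 16 for Xcl1 and Tnfsf11, 14 for Xcl1 and Areg, 14 for Xcl1 and Il13, 13 for Areg and Il13, 11 for Tnfsf11 and Areg and 7 for Tnfsf11 and Il13. At these low counts a cell without a UMI may still make the RNA, so the overlaps are not read as shared or separate subsets.

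Other cytokines of T cells, Tnf and Ltb apart, were rare or undetected at this depth. Il17a, Il22 and Il5 had no UMI, Il17f 2 UMIs in 1 cell, Ifng 3 UMIs in 1 cell, Il4 3 UMIs in 3 cells, Il2 11 UMIs in 9 cells and Csf2, the gene of GM-CSF, 8 UMIs in 7 cells. The chemokines Ccl3, Ccl4 and Ccl1 had none. The keratinocyte growth factors Igf1, Fgf7 and Fgf10 likewise had none, each allowing up to 3.03 CPM. Tnf was seen in 42 cells at 99.0 CPM, below the 264 CPM of Langerhans-rich cells, and Ltb in 56 cells at 88.9 CPM against 60.5 CPM. Of the whole cytokine list 9 genes passed the level limit, 3 of them in T cells alone, and these 3 were at least 2-fold higher. Of the 6 that passed it in Langerhans-rich cells none was higher by as much and 3 were lower. Among all 6221 genes that passed there, 756 were higher and 1011 lower. Counting all secreted factors of the lists except Tgfb1, 11 cells had a UMI of none, 22 of 1, 42 of 2, 24 of 3 and 29 of at least 4.

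**Figure D3:**
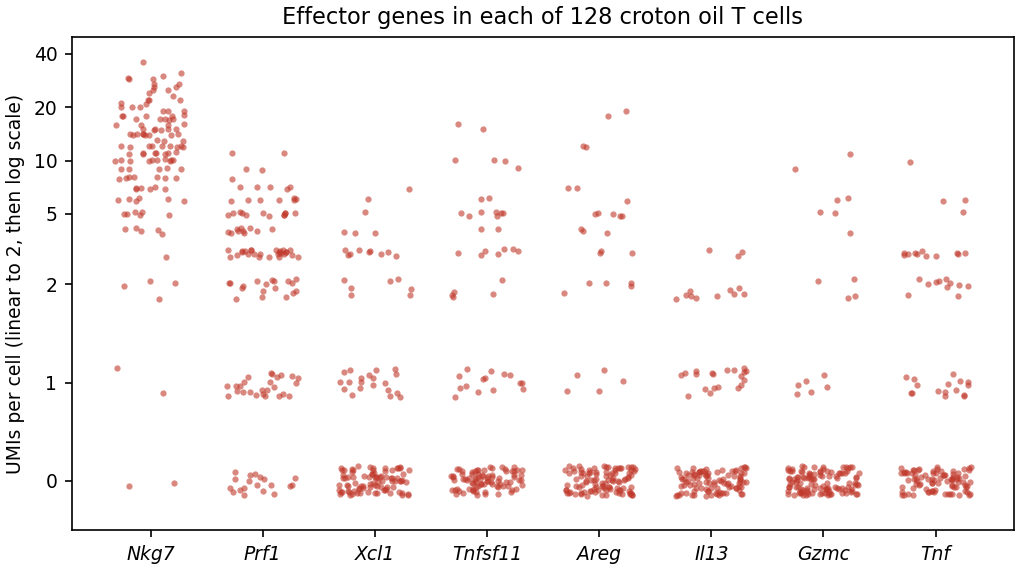
UMIs per cell of 8 effector genes in each of the 128 croton oil T cells, without thinning and with points spread sideways and slightly upwards or downwards for visibility. Nkg7 (126 cells) and Prf1 (109 cells) are seen in most cells, while Xcl1, Tnfsf11, Areg, Il13, Gzmc and Tnf are at 0 in most.

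Of 11 genes listed for interleukin-17-producing gamma-delta T cells, 4 had no UMI and 4 passed the level limit. Maf passed it through T cells alone and was at least 2-fold higher. Of the 3 that passed it in Langerhans-rich cells, Rora was higher by as much and Blk and Il1r1 lower. Among all 6221 genes that did, 756 were higher and 1011 lower. Blk, a kinase linked to that programme, had no UMI, and Il1r1 17 UMIs in 4 cells. Il23r had 11 UMIs in 10 cells, Sox13 1 UMI, and Ccr6 4 UMIs in 2 of the cells without Trdc. Rora, a nuclear receptor, had 154 UMIs in 34 cells (156 CPM against 56.6), of which 46 lay in 1 of the Trac-only cells and 32 in the keratin-bearing cell. Without these 2 cells Rora was at 84.2 CPM, less than 2-fold above the Langerhans-rich level, and it was at 257 CPM in the Krt14- and Krt5-rich cells. Maf, which that programme also uses, was seen in 52 cells at 146 CPM against 3.70 CPM in Langerhans-rich cells. Maf stood at 179 CPM in the 100 Krt14- and Krt5-rich cells, and the keratin-bearing cell held 22 of its 144 UMIs. Without that cell Maf was at 133 CPM in 51 cells.

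Genes of skin residence and of circulation were each present in part. Itgae, the CD103 integrin chain that binds E-cadherin on keratinocytes, was seen in 114 cells (383 CPM against 35.2). Cxcr6, a chemokine receptor of tissue lymphocytes, was seen in 84 (201 CPM against 0.367), and Cd69, which retains cells in tissue and marks recent activation, in 70 (169 CPM against 20.9). Itga1 and the residence factor Zfp683 had no UMI, and Ccr8 and Ccr10, skin-homing receptors, 1 and 4 UMIs. Of 8 residence genes past the level limit 3 were at least 2-fold higher and 1 lower, beside 23.8% and 12.8% of all genes. S1pr1, which lets lymphocytes leave tissue, had 6 UMIs in 2 cells, and Lef1 1 UMI. Klf2, a factor of circulating T cells, had 97 UMIs in 49 cells (98.0 CPM against 68.4). Ccr7, which guides cells to lymph nodes, had 52 UMIs in 16 cells (52.6 CPM against 36.3), 25 of them in 1 cell. A further 8 and 5 Ccr7 UMIs lay in cells with 63 and 27 UMIs of Cd74. Tcf7, a factor of long-lived T cells, was present in 102 cells at 290 CPM against 0.529 CPM.

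Among cytokine receptor genes 2 chains led. Il12rb2 had 976 UMIs in 119 cells (986 CPM against 8.07), and Il2rb, shared by the receptors for interleukins 2 and 15, 612 UMIs in 120 cells (618.5 CPM against 0.514). The partner chain Il2rg was seen in 97 cells (233 CPM). Il12rb1, needed beside Il12rb2 for interleukin 12, had 21 UMIs in 21 cells, Il2ra, the inducible chain, 31 UMIs in 14 cells, and Il15ra 10 UMIs in 5. Il7r had 55 UMIs in 12 cells, at 55.6 CPM against 913 CPM in Langerhans-rich cells. Of 10 such genes past the level limit 4 reached it in T cells alone, and all 4 were at least 2-fold higher. Of the 6 that reached it in Langerhans-rich cells 2 were higher by as much and 4 lower. The counts for all 6221 genes that did so were 756 and 1011.

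Activation genes lay on both sides of the Langerhans-rich level. Of 13 past the level limit 5 reached it in T cells alone, 4 of them at least 2-fold higher than in Langerhans-rich cells. Of the 8 that reached it in Langerhans-rich cells 2 were higher by as much and 2 lower. For all 6221 such genes the counts were 756 and 1011. The list median of 0.30 lay next to the 0.29 of all genes. Nr4a2 and Nr4a3, immediate targets of receptor signals, were at 812 and 802 CPM, in 116 and 110 cells, against 343 and 1046 CPM. Nr4a1 was at 168 CPM in 73 cells. Batf, a factor of activated lymphocytes, was seen in 74 cells (151 CPM against 4.83), Tnfrsf18 in 30 and Cd28 in 16, while Icos was seen in 10 cells and Tnfrsf4 had no UMI. Cd44, which rises on activated T cells, was seen in 112 cells at 555 CPM, below the 1217 CPM of Langerhans-rich cells. Tnfrsf9, the receptor 4-1BB, was seen in 86 cells at 364 CPM against 554 CPM. Of its 360 UMIs 75 came from 1 cell, which had 16181 UMIs, 27 of Cd74 and 1.545 T cell UMIs per 1000.

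Checkpoint receptors were likewise split. Pdcd1, the receptor PD-1, had no UMI and Ctla4 4 UMIs in 1 cell, while Lag3 was seen in 23 cells (33.4 CPM) and Tigit in 11 (16.2 CPM). Cd96 was present in 108 cells (306 CPM against 0.0294) and Tox, a nuclear factor of developing and persistently stimulated T cells, in 120 cells (848 CPM against 0.103). Havcr2 at 46.5 CPM and Entpd1 at 1.01 CPM were below the 624 and 75.5 CPM of Langerhans-rich cells.

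Among lineage factors, Ets1 (545 CPM, 123 cells), Id2 (865 CPM, 121 cells), Runx3 (573 CPM, 115 cells) and Tcf7 (290 CPM, 102 cells) were each seen in most cells. In Langerhans-rich cells Id2 and Runx3 were also high, at 638 and 383 CPM, and Ets1 and Tcf7 were at 2.88 and 0.529 CPM. Bcl11b (284 CPM, against 239 CPM in the Krt14- and Krt5-rich cells) was seen in 80 T cells. Tbx21 and Eomes, which direct type 1 and cytotoxic effector programmes, had no UMI. Gata3, a factor of T cells in general and of type 2 cells, was at 122 CPM in 53 cells, but was at 326 CPM in the Krt14- and Krt5-rich cells, and 23 of its 121 UMIs lay in the keratin-bearing cell. Ikzf2, the gene of Helios, was present in 92 cells at 382 CPM against 10.4 CPM, and at 131.5 CPM in the Krt14- and Krt5-rich cells. The keratin-bearing cell held 27 of its 378 UMIs. Foxp3 was seen in 1 cell. Of 12 such factors 5 reached the level limit in T cells alone. Of the 3 that reached it in Langerhans-rich cells 1 was at least 2-fold higher, beside 756 of all 6221 such genes.

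**Figure D4:**
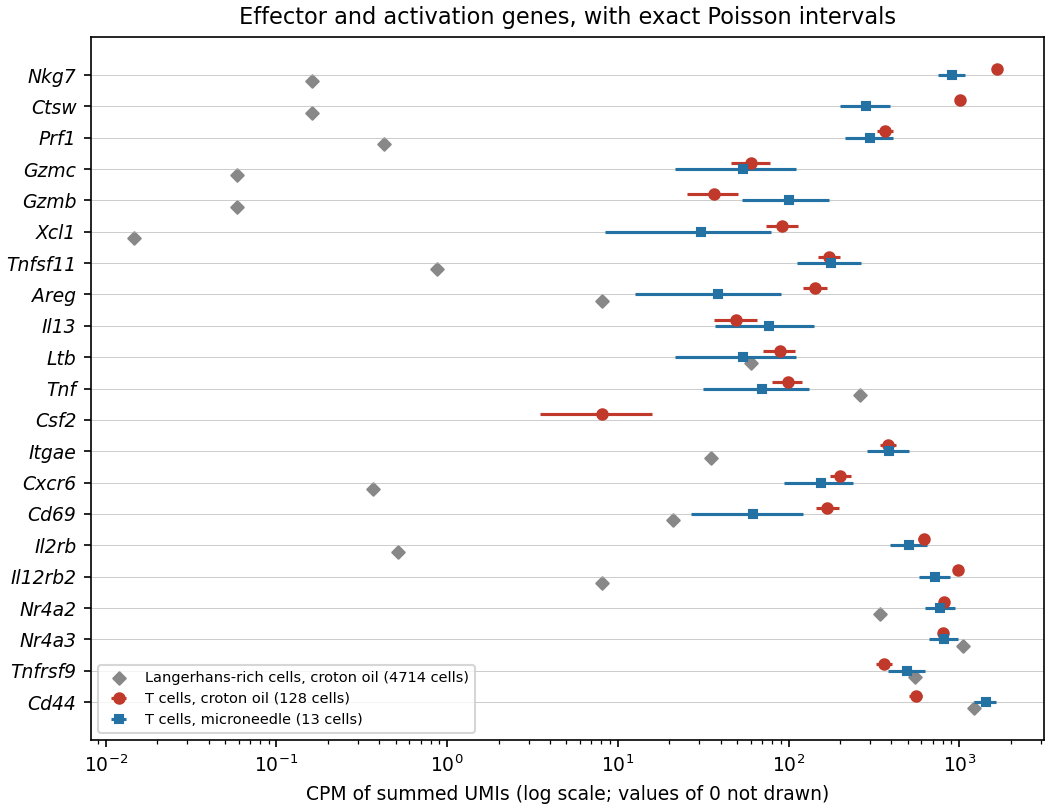
Levels of 21 effector, residence and activation genes in CPM on a log scale, for the 128 croton oil T cells (circles), the 13 microneedle T cells (squares), both with exact Poisson intervals, and the 4714 Langerhans-rich cells (diamonds), where values of 0 are not drawn. Nkg7 stood at 1661, 903 and 0.162 CPM, whereas Tnf, Nr4a3, Tnfrsf9 and Cd44 were at least as high in Langerhans-rich cells as in croton oil T cells.

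Few of the cells bore signs of division. After thinning, 11 of 126 T cells (8.73%, 4.44 to 15.1) had 3 or more UMIs of the 20 genes of the G2 and M phases, against 152 of 4702 Langerhans-rich cells (3.23%, 2.75 to 3.78). Without thinning the shares were 41.4% and 67.8%, in the opposite order, so that no order is read from them. The list's UMIs were mainly of Hmgb2 (166) and Smc4 (119), which resting cells also make. Mki67, the proliferation antigen, was seen in 4 cells, with 14 of its 17 UMIs in the Trac-only cell that also held 14 of the 40 Top2a UMIs. Cdk1 was seen in 1 cell, and the cyclins Ccnb1 and Ccnb2 had no UMI. Such a limit on a summed count is a range and not a class of cells.

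S phase genes were more frequent, through 1 gene above all. After thinning, 37 of 126 T cells (29.4%, 21.6 to 38.1) had 3 or more UMIs of the 20 genes, against 2.23% (1.83 to 2.70) of Langerhans-rich cells. Without thinning the shares were 81.2% and 64.0%. Rrm1, a subunit of ribonucleotide reductase, gave 303 of the 791 UMIs and was seen in 82 cells (306 CPM against 37.9), while its partner Rrm2 had 7 UMIs. Without Rrm1 the share was 8.73% against 1.87%. Pcna, the replication clamp, was seen in 67 cells (130 CPM against 87.7), and Mcm2 to Mcm7, the helicase subunits, in 9 to 23 cells each.

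Immediate early genes, which cell isolation also induces, were present in most cells, Fos in 125 (1764 CPM), Junb in 124 (1738 CPM) and Jund in 127 (1064 CPM). Of the 6221 genes past the level limit in Langerhans-rich cells, 756 were at least 2-fold higher in T cells and 1011 lower. Of the 13 listed immediate early genes, all among these, 1 was higher by as much and 4 lower, including Atf3 (141 against 1242 CPM). Their summed level per T cell ran from 1523 to 23230 CPM, with a median of 6920. Their part in the levels of Nr4a2, Nr4a3 and Cd69 was not tested.

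Markers of other cell types were low or, for lymphocyte lists, partly present. Of the 8 NK and innate lymphoid markers, Ncr1, Eomes and Gzma had no UMI. The 3 past the level limit, 1 through T cells alone, were at least 2-fold higher than in Langerhans-rich cells, beside 23.8% of all genes. These were Klrb1b, an inhibitory NK cell receptor (172 CPM in 80 cells, against 51.3), the receptor Kit and Areg, and the list summed to 381 CPM against 82.6. Of the 8 monocyte and macrophage markers Lyz2, Ly6c2, Fcgr1 and Ms4a7 had no UMI, and their sum was 47.5 CPM against 1631 CPM in Langerhans-rich cells. Of the 6 mast cell markers 5 had none, the exception being Kit with 60 UMIs in 30 cells (60.6 CPM against 22.2). Among B cell markers Cd79b, Ms4a1 and Jchain had none, while Ighm had 60 UMIs in 45 cells (60.6 CPM against 8.43) and Cd79a 21 in 18 (21.2 against 0.646). The 6 neutrophil markers, 2 of them held low by the rule, summed to 92.0 CPM.

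The keratin-bearing cell held 2019 of the 2029 Krt1 UMIs, 454 of the 464 of Krt10, 310 of the 318 of Perp, 218 of the 233 of Sfn, 177 of the 226 of Krt14, 291 of the 417 of Dsp and 1 of the 8 of Krt5. Krt15 had no UMI in any T cell. In the other 127 cells Krt5 was at 0.109% of its level in the Krt14- and Krt5-rich cells, Krt14 at 0.247%, Perp at 0.428%, Sfn at 0.623% and Krt1 at 0.767%. Dsp, the gene of the desmosome protein desmoplakin, was at 10.1% of that level, with 126 UMIs in 58 cells, 137.5 CPM against 2.07 CPM in Langerhans-rich cells. Krt10 was at 2.92%, with 10 UMIs. The microneedle T cells held 25 UMIs of Dsp in 7 of 13 cells, with no UMI of Krt14 and 1 of Krt5. The low Krt14 and Krt5 were fixed by the rule, and the Krt14- and Krt5-rich cells were picked for both.

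Against Langerhans-rich cells, the largest differences among genes at 100 CPM or more included several with no part in receptor signalling. Beside the T cell genes already given stood Cntn1 (864 CPM against 0.147), an adhesion molecule first known from neurons. Slc24a3, an ion exchanger, was at 692 CPM against 0.514 in 112 cells. Kcnma1, a calcium-activated potassium channel, was at 644 CPM against 0.176 in 112 cells, and Fermt2, which activates integrins, at 856 CPM against 2.39 in 126 cells. Skap1, an adaptor that couples the T cell receptor to integrins, was at 767 CPM against 0.999 in 125 cells. Krt1 also ranked among the 20, through 2019 of its 2029 UMIs in the keratin-bearing cell.

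The 13 microneedle T cells are set beside these without a test, since each treatment is 1 library. They held 129570 UMIs with a median of 8023 per cell. Of these UMIs 27281 came from 1 cell with 42 UMIs of the 6 T cell genes (1.54 per 1000). This cell is kept in the sums below. Ctla2a was at 3998 CPM against 3882 in the croton oil T cells, Cd247 at 1142 against 1104, Tox at 965 against 848, Itgae at 386 against 383, Tnfsf11 at 178 against 173 and Prf1 at 301 against 369. For these 6 genes, picked after their values were seen, the counting intervals of both libraries overlapped. They did not overlap for others picked in the same way. Ctsw was at 286 CPM (201 to 394) against 1009, Nkg7 at 903 against 1661 and Areg at 38.6 against 143. Cd44 was at 1428 against 555, Ifngr1 at 656 against 175 and Hspa1a, a heat-shock gene, at 903 against 109. The share of all genes without overlap was not counted, so both sets are examples and no difference between treatments is read from them. S100a9, a neutrophil gene, had 123 UMIs in 1 of the 13 cells, and Gzmb 13 UMIs, Ccl3 21 and Ccl5 9, each in 1 cell.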

How the data were processed

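The deposited values were UMI counts per gene and barcode, whole numbers and not normalized, which the authors made with Cell Ranger 8.0 on GRCm39, per the submitters' processing notes, from Chromium 3′ v3.1 libraries, per the labels' protocols. The croton oil, microneedle and untreated libraries held 8241, 6945 and 9876 barcodes with 119360952, 117178809 and 127666928 UMIs. Of 34289 features, 33767 had identifiers in GENCODE M39, from which positions were taken. Free RNA from broken cells enters droplets, and no doublet caller was run beside the limits on MHC class II, keratin and S100 genes. UMIs were summed over cells and expressed as CPM with a pseudocount of 5. Cells are not replicates, so no p-value was computed, and intervals (exact binomial, exact Poisson, 95%) cover counting error only. A difference of 2-fold was counted. The genes of 26 fixed lists could be named (1 listed gene was not found under its symbol), beside the 20 largest differences from Langerhans-rich cells at 100 CPM or more and the 10 largest between receptor classes. The members and lists were chosen with earlier results of these data known. Some listed genes are not reported here. The code was tested on simulated data. Python 3.11.15, numpy 2.4.6, scipy 1.17.1 and pandas 2.3.3 were used.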

Additional observations from a re-analysis of the deposited data

How the results depend on the processing

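With 3 or 10 in place of 5 T cell UMIs the untreated count was 17 or 3 cells, and with 1 T cell UMI per 1000 or the limit on Krt1 and Krt10, both chosen after seeing the data, it was 1. The croton oil and microneedle counts stayed within 1.5 times under every membership limit tried. Cells with Trac only were 1 at 2 UMIs of Trdc or Trac, 1 after thinning and 0 without the 10% deepest T cells, where that class comparison could not be made. Cells with both were 4 at 2 UMIs and 5 after thinning. Cells with neither were 0 at 10 T cell UMIs, 2 at 2 UMIs of Trdc or Trac and 5 after thinning. The share with G2 and M phase UMIs was 18.2% at 2 UMIs, 0.794% at 5 and 41.4% without thinning. Between classes, 60 UMIs in place of 30 gave 1272 genes higher and 268 lower in Trdc-only cells, and 1 UMI gave 5438 and 2315. Against Langerhans-rich cells, 50 CPM in place of 20 gave 1218 genes higher. Of 1111 log2 differences of 101 listed genes under 11 alternatives, 901 moved by less than the counting interval, 209 moved by more with the same sign, and 1 reversed: Ikzf3 without the 10% deepest T cells, at -0.56. No paired analysis was possible because each group is 1 library. Depth and the 128 cells limit what a count of 0 shows, and animals, library preparation and treatment cannot be told apart.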

Other observations

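The feature list holds 4 transgene sequences that the labels do not mention, mCherry, eGFP, tdTomato and creER. The croton oil T cells had no UMI of eGFP, which allows up to 3.03 CPM. The Langerhans-rich cells had 50 UMIs, or 0.735 CPM, so no difference can be read. They had 71 UMIs of mCherry in 5 cells, 67 of them in the keratin-bearing cell, and the microneedle T cells had 0. Without that cell the other 127 were at 4.37 CPM. The untreated cells that met the rule, 8 of 9 of them with Krt1 and Krt10 together at 0.5% of UMIs or more, had 37 UMIs in 5 cells. The Krt14- and Krt5-rich croton oil cells were at 2263 CPM.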
